A study of Mus musculus with 21 samples.

Results

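The genes described here are 10 components of the Notch pathway. They are the Delta ligands Dll1, Dll3 and Dll4, the Jagged ligands Jag1 and Jag2, the receptors Notch1 and Notch2, and the target genes Hes1, Hes5 and Hey1. They were chosen by name, with no measured value in the rule, although earlier results of these data were known. Each was found by its Ensembl identifier among the 55400 genes of the count table. All 10 were followed in 21 RNA-seq libraries, 7 groups of 3 biological replicates.

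The cultures were C57BL/6 mouse embryonic stem cells (ESCs) directed towards motor neurons (MNs) of the hypaxial motor column, the MNs that serve body wall muscle. Embryoid bodies received 1 µM retinoic acid and 0.5 µM SAG, an agonist of Sonic hedgehog signalling, and were collected untreated as MN progenitors at D4, as proneural cells 8 h later (D4H8), as newborn MNs at D5 and as mature MNs at D6. At the last 3 stages a matched group was given GSKJ4, an inhibitor of the H3K27 demethylases Kdm6a and Kdm6b, for the day before collection (D4H8_GSKJ4, D5_GSKJ4 and D6_GSKJ4). The protocol common to all groups adds 5 µM DAPT, which blocks the gamma-secretase cleavage of Notch, at D4 and again at D5, so culture age and DAPT exposure cannot be told apart in any difference between stages. In the study's methods the addition at D5 is made in base medium, which holds no retinoic acid or SAG. Their withdrawal for the last day therefore cannot be told apart from culture age at D6 either. Whether the D4 cultures were collected before the first addition is not stated, no library without DAPT in its protocol was analysed here, and no vehicle is stated for the untreated RNA-seq cultures.

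Notch signalling passes between neighbouring cells. A Delta or Jagged ligand on one cell binds a Notch receptor on the next, proteases including gamma-secretase free the intracellular domain of the receptor, and this domain joins the DNA-binding protein RBPJ to switch on Hes and Hey genes. Hes proteins repress proneural genes such as Neurog2 and so hold the receiving cell as a progenitor, whereas proneural factors raise Delta ligands in the cell that is about to become a neuron.

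The promoters of Hes5, Dll4 and Dll1 are shown because these genes were among the lowered members after GSKJ4 at D4H8. Each is the 250 bases before the RefSeq start on GRCm38.p6, read 5′ to 3′ on the strand of the gene, at chr4:154960673-154960922 (plus strand) for Hes5, chr2:119325534-119325783 (plus strand) for Dll4 and chr17:15376933-15377182 (minus strand) for Dll1. Capitals mark matches, on either strand, to the RBPJ core GTGGGAA, the E-boxes CAGCTG and CAGATG, and the N-box CACNAG, and no match overlapped another.
Hes5: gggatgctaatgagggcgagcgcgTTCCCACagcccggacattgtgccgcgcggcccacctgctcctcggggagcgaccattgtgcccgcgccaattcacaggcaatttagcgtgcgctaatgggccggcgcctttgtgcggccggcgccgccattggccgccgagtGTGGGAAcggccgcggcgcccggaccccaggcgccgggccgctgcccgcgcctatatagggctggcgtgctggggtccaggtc
Dll4: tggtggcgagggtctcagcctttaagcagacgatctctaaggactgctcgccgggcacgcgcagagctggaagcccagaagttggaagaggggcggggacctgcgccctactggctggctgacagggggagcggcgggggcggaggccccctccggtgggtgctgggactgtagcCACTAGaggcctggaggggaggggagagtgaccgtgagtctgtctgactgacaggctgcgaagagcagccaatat
Dll1: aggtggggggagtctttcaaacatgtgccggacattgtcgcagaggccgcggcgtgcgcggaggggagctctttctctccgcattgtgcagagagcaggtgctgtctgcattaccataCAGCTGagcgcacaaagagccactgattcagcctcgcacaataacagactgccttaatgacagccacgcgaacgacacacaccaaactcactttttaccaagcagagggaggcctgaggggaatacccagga

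The Hes5 window held 2 RBPJ matches, which began 226 and 83 bases before the start and lie on opposite strands. An RBPJ match was present in 5.42% of the 32851 promoter windows of the same length, and in none of the windows of the other members that had an entry. The Dll1 window held 1 CAGCTG, 132 bases before its start (13% of all windows held one), and the Dll4 window held 1 N-box, 75 bases before its start (36.7% of all windows). CAGATG was in none of these 3 windows and in 14.4% of all windows. RefSeq promoters were matched for 8 of the 10 members, and those of Dll3, Jag1, Jag2, Notch1 and Notch2 are not printed because their windows reach into the gene as GENCODE annotates it.

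Total counts ran from 14982115 to 34383842 per library (median 16238435), with untreated D4H8 replicate 1 the deepest. D5_GSKJ4 replicate 2 stood apart, with 39381 genes at 0 against 29339 to 32805 in the other 20 libraries. The stage labels were checked against marker lists. Mean Olig2, which defines MN progenitors, was 47.4 FPKM (fragments per kilobase of exon, scaled to the counted reads of the library) at D4, 98.2 at D4H8, 22.4 at D5 and 1.24 at D6, while mean Isl1, a MN factor, went from 3.79 to 28.5, 84.9 and 125 FPKM. The 7 genes of the MN progenitor list together did not fall, with sums of 156 to 232 FPKM at D4 and 154 to 220 at D6. Olig1, Pax6, Sox2 and Sox1 were lower at D6 than at D4, like Olig2. Mean Nkx6-1 went from 27.2 to 143 FPKM and mean Nes from 19.5 to 21. Endothelial markers, the list of a tissue known for Dll4, Notch1 and Hey1, summed to 1.57 to 6.43 FPKM over all libraries, and the presomitic mesoderm list, which marks a tissue known for Dll1 and Dll3, to 0.32 to 3. These are bulk cultures in which cells do not advance in step, so fewer cells that express a gene and less RNA per cell cannot be told apart.

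**Figure D1:**
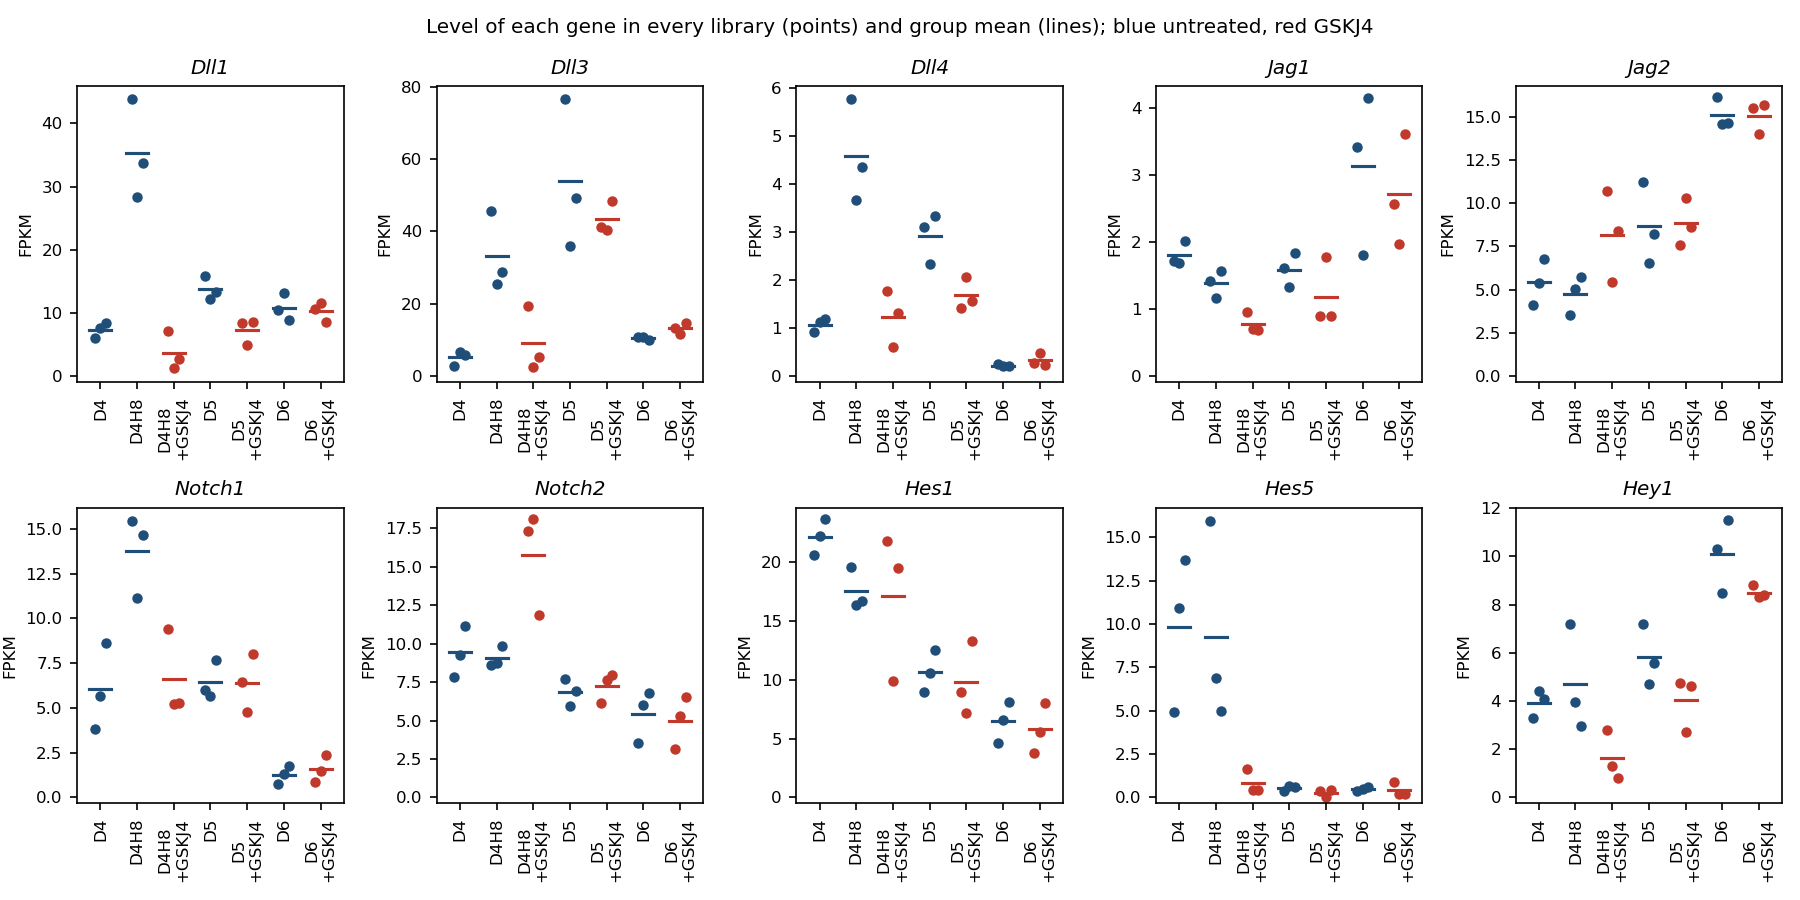
FPKM of the 10 Notch pathway genes (vertical axes, each from 0) in the 7 groups (horizontal axes), with a point for each library and a line for the group mean, untreated in blue and GSKJ4 in red. The 3 Delta ligands peak at D4H8 or D5, Jag2 is highest at D6, and Hes5 is near 0 in every D5 and D6 library.

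The Delta ligands formed a pulse. Dll1, a Delta ligand of newly forming spinal neurons (chr17:15367354-15376872, GRCm38, minus strand), had 5.94, 7.54 and 8.32 FPKM in the D4 libraries, 43.8, 28.3 and 33.8 at D4H8, 15.8, 12.1 and 13.4 at D5, and 10.5, 13.2 and 8.87 at D6. Its D4H8 libraries lay above all other untreated libraries, and its D6 libraries above all D4 libraries. Dll1 rose by a log2 fold change of 2.24 ± 0.20 (SE, n = 3 against 3) from D4 to D4H8 (edgeR adjusted p = 2.65e-05) and fell by 1.36 ± 0.19 on the log2 scale from D4H8 to D5 (edgeR adjusted p = 0.000131). Between D5 and D6 the log2 difference was -0.24 ± 0.19 (edgeR adjusted p = 0.368). Its exons overlap an antisense lincRNA, A930024N18Rik, and reads of the pair cannot be told apart because the kit does not mark strand.

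Dll3, a divergent Delta that is not known to activate Notch on a neighbour and acts within the cell (chr7:28293553-28302238, minus strand), stayed high for longer. Its D4 libraries had 2.84, 6.71 and 5.82 FPKM, its D4H8 libraries 45.6, 25.3 and 28.8, its D5 libraries 76.5, 35.9 and 49.3, and its D6 libraries 10.8, 10.8 and 9.87. The D4H8 and D5 ranges overlapped, and both lay above all D4 and D6 libraries. The rise to D4H8 was the steepest of the 10 genes at that step, at 2.68 ± 0.33 (edgeR adjusted p = 0.000188), and the fall came only at D6, by 2.25 ± 0.32 on the log2 scale against D5 (edgeR adjusted p = 0.000138). From D4H8 to D5 the log2 difference of 0.70 ± 0.30 had an edgeR adjusted p of 0.104, and passed without D4H8 replicate 1 (1.03, edgeR adjusted p = 0.0294).

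Dll4, a Delta ligand best known from blood vessels (chr2:119325784-119335962, plus strand), was the lowest of the 3. It had 0.91, 1.12 and 1.18 FPKM at D4, 5.77, 3.67 and 4.35 at D4H8, 3.1, 2.34 and 3.33 at D5, and 0.24, 0.21 and 0.2 at D6. No D6 library reached the lowest D4 library. The rise to D4H8 was 2.06 ± 0.23 (edgeR adjusted p = 0.000101). From D4H8 to D5 it fell by 0.66 ± 0.22 on the log2 scale (edgeR adjusted p = 0.0366), a call lost in 5 of 12 refits that each left out 1 library, with a log2 change of -0.43 without D4H8 replicate 1. The drop to D6 was the largest of any of the 10 genes between D5 and D6, at 3.63 ± 0.27 lower on the log2 scale (edgeR adjusted p = 9.37e-07). The D6 values rest on 12 to 15 counts per library, and Gm14207 overlaps it on the other strand.

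The Jagged ligands had a later course than the Delta ligands. Jag2 (chr12:112907819-112929776, minus strand) had 4.11, 5.36 and 6.79 FPKM at D4, 3.53, 5.04 and 5.71 at D4H8, 11.2, 6.55 and 8.22 at D5, and 16.1, 14.6 and 14.6 at D6. Its levels climbed in 2 steps without overlap, and the D4 and D4H8 ranges overlapped. Jag2 rose by 0.88 ± 0.21 at D5 (edgeR adjusted p = 0.00654) and by a further 0.91 ± 0.21 at D6 (edgeR adjusted p = 0.00442).

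Jag1 (chr2:137081456-137116644, minus strand), which marks certain interneuron progenitor domains of the spinal cord, was low throughout. It had 1.71, 1.69 and 2.01 FPKM at D4, 1.41, 1.17 and 1.56 at D4H8, 1.61, 1.32 and 1.83 at D5, and 3.41, 1.81 and 4.15 at D6. The D6 libraries differed among themselves by more than those of any earlier stage, and the lowest of them lay within the D5 range. Jag1 rose by 1.09 ± 0.26 from D5 to D6 (edgeR adjusted p = 0.0057), and neither earlier step passed the test.

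Both receptors ended below their starting level, by different routes. Notch1 (chr2:26457903-26516663, minus strand) had 3.81, 5.68 and 8.62 FPKM at D4, 15.5, 11.1 and 14.7 at D4H8, 6, 5.69 and 7.66 at D5, and 0.78, 1.29 and 1.77 at D6. It thus followed the Delta ligands up at D4H8, with no overlap between the groups. The rise of 1.16 ± 0.26 (edgeR adjusted p = 0.0196) was no longer called without D4 replicate 1 (0.98, edgeR adjusted p = 0.0812), D4 replicate 2 (1.12, edgeR adjusted p = 0.0895), D4H8 replicate 1 (1.05, edgeR adjusted p = 0.104) or D4H8 replicate 3 (1.13, edgeR adjusted p = 0.0506). Notch1 then fell by 1.09 ± 0.26 on the log2 scale at D5 (edgeR adjusted p = 0.0063) and by 2.23 ± 0.28 at D6 (edgeR adjusted p = 4.9e-05). Antisense transcripts 0610009E02Rik and Gm13568 overlap its exons.

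Notch2 (chr3:98013527-98150361, plus strand) declined slowly, with 7.85, 9.25 and 11.2 FPKM at D4, 8.63, 8.72 and 9.84 at D4H8, 7.68, 5.95 and 6.92 at D5, and 3.53, 6.02 and 6.79 at D6. Its D4 and D4H8 libraries overlapped, its D5 libraries lay just below those of D4H8 and overlapped those of D6, and no single step passed the test with all libraries, although the step to D5 did without D6 replicate 1 (-0.40, edgeR adjusted p = 0.0329). The span from D4 to D6 passed, with a log2 change of -0.73 ± 0.18 (edgeR adjusted p = 0.00336). A same-strand transcript of unknown coding status, Gm42820, overlaps it.

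The 3 target genes parted. Hes5, a widely used readout of Notch activity in neural progenitors (chr4:154960923-154962371, plus strand), had 4.94, 10.9 and 13.7 FPKM at D4 and 15.9, 6.91 and 4.99 at D4H8. It was at 0.38, 0.66 and 0.6 FPKM at D5, from 8, 15 and 13 counts, and at 0.4, 0.51 and 0.61 at D6. Its D4 and D4H8 libraries overlapped widely and differed by a log2 change of -0.07 ± 0.40 (edgeR adjusted p = 0.945), in the same interval in which Dll1, Dll3, Dll4 and Notch1 rose. Hes5 fell by 4.09 ± 0.50 on the log2 scale from D4H8 to D5 (edgeR adjusted p = 3.56e-05), and by 3.40 without D4H8 replicate 1, its highest library (edgeR adjusted p = 3.9e-05). Gm20421 overlaps it on the other strand, and the low counts leave the difference between D5 and D6 undetermined, at -0.01 ± 0.58 (edgeR adjusted p = 0.994).

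Hes1, which is also driven by other signals (chr16:30064384-30067796, plus strand), fell by degrees. Its D4 libraries had 20.6, 22.1 and 23.6 FPKM, its D4H8 libraries 19.5, 16.3 and 16.7, its D5 libraries 8.91, 10.6 and 12.5, and its D6 libraries 4.66, 6.57 and 8.11. No 2 successive stages overlapped. The step to D4H8 did not pass the test (-0.38 ± 0.17, edgeR adjusted p = 0.279), whereas Hes1 fell by 0.72 ± 0.17 on the log2 scale at D5 (edgeR adjusted p = 0.00683) and by 0.62 ± 0.18 at D6 (edgeR adjusted p = 0.0156). The last call was lost without D5 replicate 3 (-0.52, edgeR adjusted p = 0.0525) or D6 replicate 1 (-0.46, edgeR adjusted p = 0.0711).

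Hey1, a Hes-related repressor (chr3:8663359-8667256, minus strand), went the other way. It had 3.29, 4.43 and 4.09 FPKM at D4, 7.21, 3.98 and 2.98 at D4H8, 7.18, 4.71 and 5.59 at D5, and 10.3, 8.48 and 11.5 at D6. Every D6 library lay above every earlier untreated library. Hey1 rose by 0.90 ± 0.28 from D5 to D6 (edgeR adjusted p = 0.0237), a call lost in 4 of 12 leave-one-out refits, with edgeR adjusted p up to 0.102 without D5 replicate 2. The rise over D4 was 1.43 ± 0.29 (edgeR adjusted p = 0.000565).

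**Figure D2:**
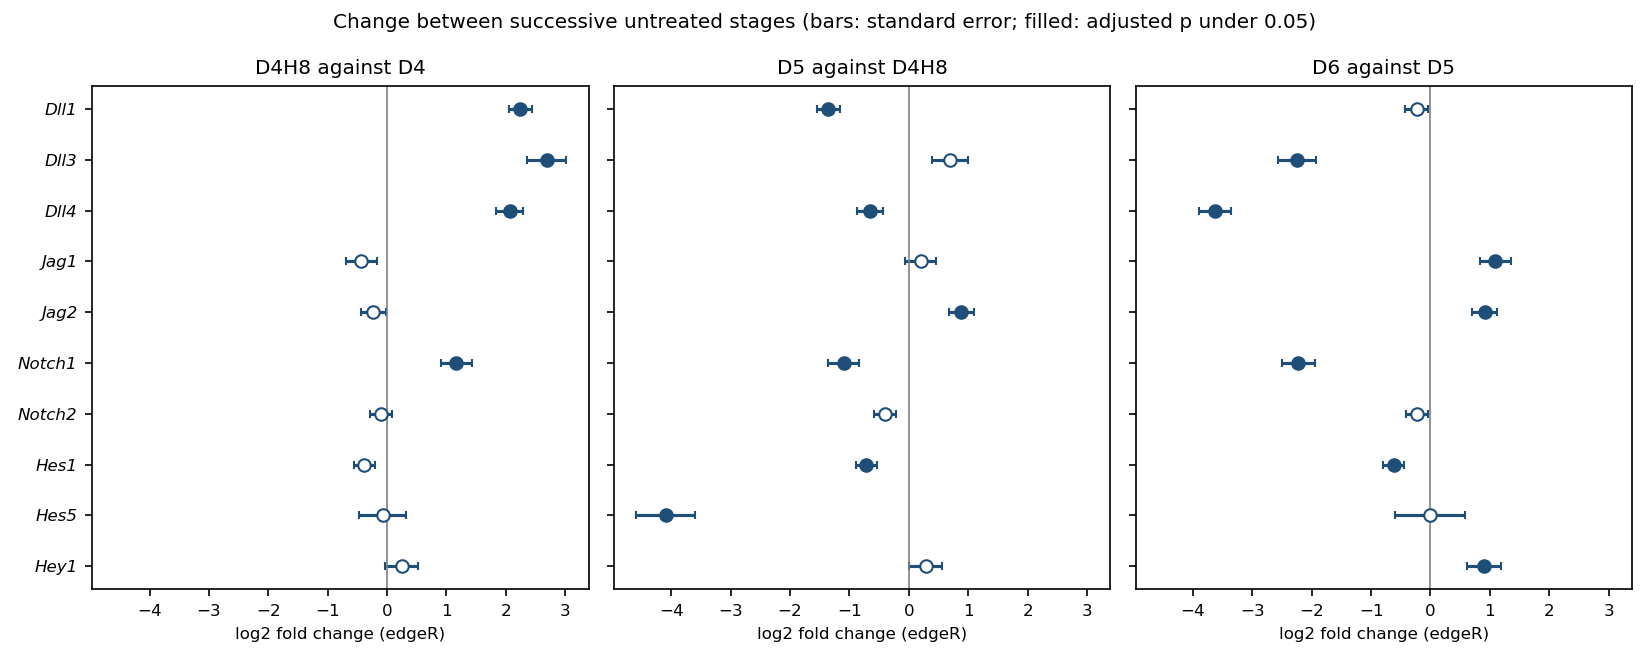
Log2 fold change (horizontal axes) of the 10 genes between successive untreated stages, n = 3 libraries a stage, with bars for the standard error and filled points for an edgeR adjusted p under 0.05. Dll1, Dll3, Dll4 and Notch1 lie to the right at D4H8, Hes5 lies furthest left at D5 (-4.09) and Dll4 furthest left at D6 (-3.63).

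Read against all genes, the first step stood out by its share of higher calls. From D4 to D4H8, 4 of 10 members rose and 0 fell, against 4.06% of 17519 tested genes called higher and 0.32% called lower (edgeR, adjusted p under 0.05). At an unadjusted p under 0.05 a single member was lower, Hes1 (5.66% of all genes), and DESeq2 also called 0 lower. From D4H8 to D5, 1 member rose and 5 fell (17.2% and 10.5% of all genes), and the step to D6 had 3 higher and 4 lower members (19.2% and 15.1%). Over the whole span from D4 to D6 all 10 were called, 5 higher and 5 lower, where 32.9% of all genes were called higher and 31% lower. The 5 higher were all of the ligands but Dll4, with Hey1. The 5 lower were Dll4, both receptors, Hes1 and Hes5, with log2 changes of -2.23 ± 0.27 for Dll4, -2.16 ± 0.28 for Notch1, -1.72 ± 0.18 for Hes1 and -4.17 ± 0.50 for Hes5 (edgeR adjusted p at most 0.00336 for these 5). Of the 5 higher, Dll1 was no longer called without D4 replicate 1 (0.54, edgeR adjusted p = 0.0561) and Jag1 without D6 replicate 3 (0.64, edgeR adjusted p = 0.0573). The median log2 change of the 10 genes over this span was -0.04, as was that of all tested genes.

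The rest of the pathway was described with a list of 47 other Notch genes, of which 45 were tested in the stage fit. Hes2 and Hes3 did not pass the filter on low counts and reached at most 0.36 and 0.11 FPKM in any group. From D4 to D4H8, 8 of the 45 rose and 1 fell (4.06% of all genes higher and 0.32% lower). Mfng, a glycosyltransferase that modifies Notch receptors, rose by 2.00 ± 0.22 (edgeR adjusted p = 0.000104), from a mean of 7.64 to 31.1 FPKM. Hes6, which antagonises Hes1, rose by 1.77 ± 0.19 (edgeR adjusted p = 7.79e-05), from 14.8 to 51.6 FPKM. Numbl, a relative of the Notch inhibitor Numb, rose by 1.26 ± 0.15 (edgeR adjusted p = 0.00016). Heyl fell by 2.00 ± 0.50 (edgeR adjusted p = 0.0365), from 0.397 to 0.0933 FPKM.

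From D4H8 to D5, 9 of the 45 rose and 9 fell, where 17.2% of all genes were called higher and 10.5% lower. Among the lowered genes were Lfng, another glycosyltransferase of the receptors (-2.24 ± 0.31, edgeR adjusted p = 0.000124), the Hes relative Hey2 (-1.52 ± 0.30, edgeR adjusted p = 0.00189), the Notch target and feedback inhibitor Nrarp (-1.06 ± 0.31, edgeR adjusted p = 0.0203) and the receptor Notch3 (-0.70 ± 0.24, edgeR adjusted p = 0.0435). Dner, a neuronal transmembrane protein proposed as a non-canonical ligand, rose by 3.57 ± 0.28 (edgeR adjusted p = 8.82e-07), and Fbxw7, part of the ubiquitin ligase that removes the Notch intracellular domain, by 1.54 ± 0.15 (edgeR adjusted p = 3.77e-06). From D5 to D6, 14 rose and 8 fell (19.2% of all genes higher and 15.1% lower), among them Dtx1 (3.25 ± 0.26, edgeR adjusted p = 1.7e-06) and Mfng (-2.46 ± 0.23, edgeR adjusted p = 5.97e-06).

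Between D4 and D6, 23 of the 45 other genes rose and 11 fell, with a median log2 change of 0.54 against -0.04 for all tested genes. Dner rose by 7.69 ± 0.34, from a mean of 0.1 to 18.8 FPKM, Dlk2 by 4.36 ± 0.46, from 0.137 to 2.74 FPKM, and Dtx1 by 4.22 ± 0.28, from 0.76 to 13.2 FPKM. RBPJ itself, the DNA-binding partner of the cleaved receptor, was 0.42 ± 0.10 higher at D6 (Rbpj, edgeR adjusted p = 0.00281). Of the 9 genes of the receptor-cleaving proteases 6 rose and 1 fell, and of the 5 genes that glycosylate the receptors 1 rose and 4 fell. Over this span 32.9% of all genes were called higher and 31% lower, and the roles were not tested against each other.

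**Figure D3:**
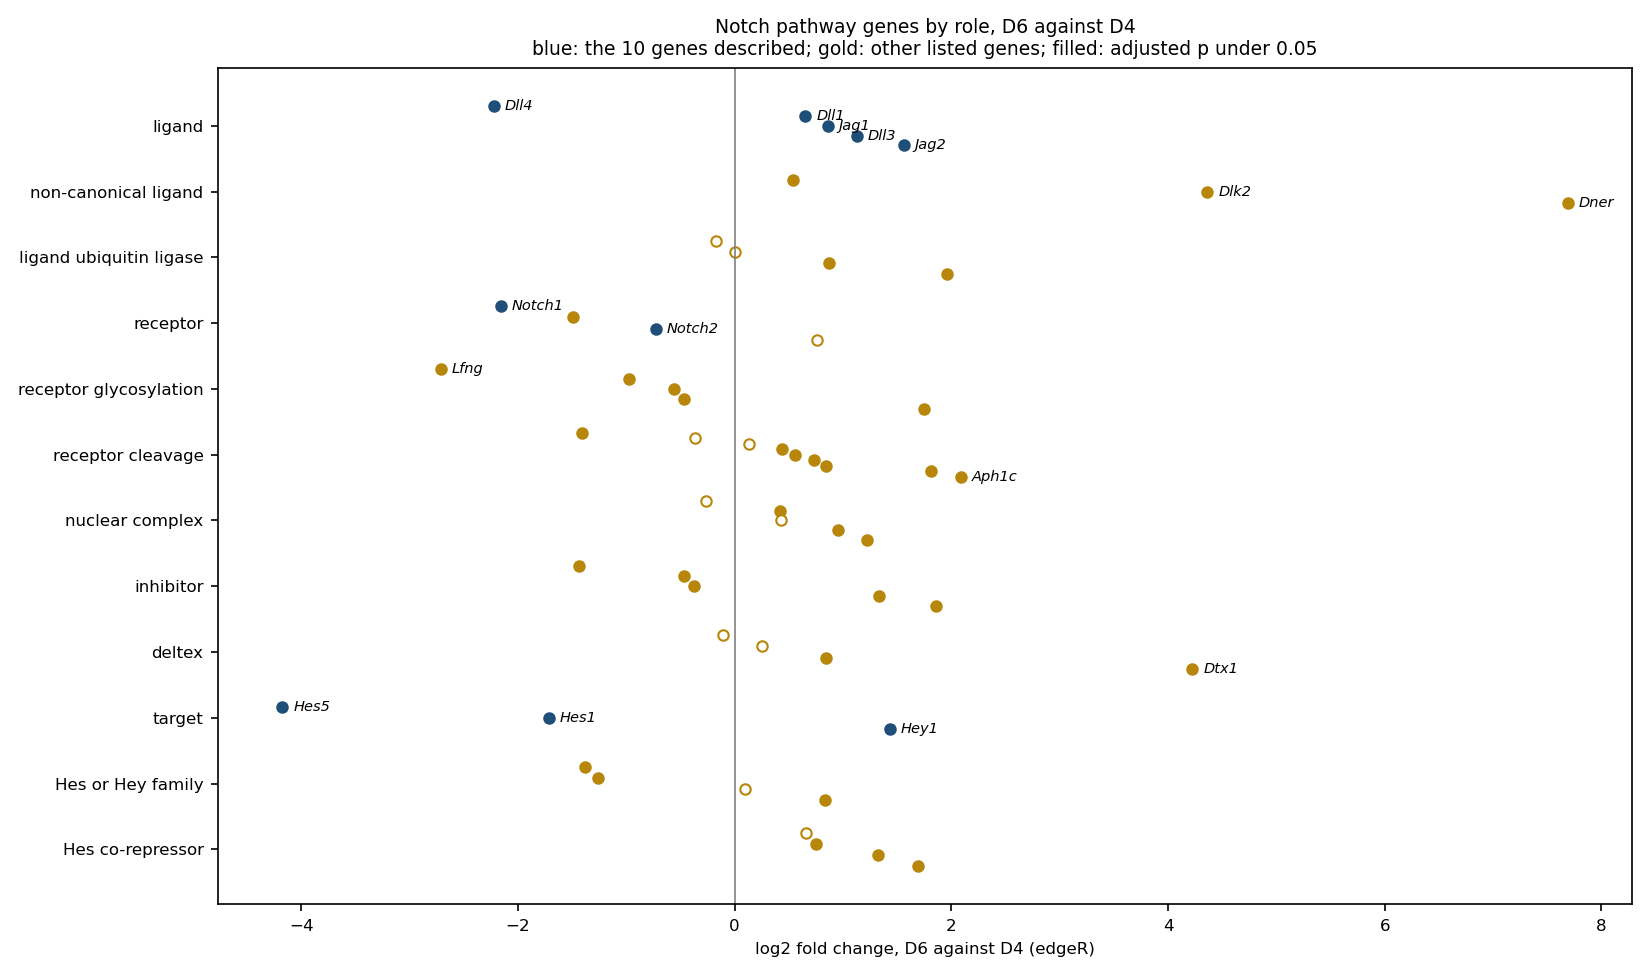
Log2 fold change from D4 to D6 (horizontal axis) of the tested Notch pathway genes, grouped by role on the vertical axis, with the 10 members in blue, other listed genes in gold and filled points for an edgeR adjusted p under 0.05. Non-canonical ligands lie to the right, with Dner at 7.69, and Hes5 lies furthest left at -4.17.

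The GSKJ4 groups address what changes when the Kdm6 demethylases are inhibited for 1 day. At D4H8, GSKJ4 cultures had less Dll1, Dll4, Notch1 and Hes5. Of the 10 members 4 were lower and 0 higher (edgeR), against 1.85% of 16269 tested genes lower and 2.11% higher. DESeq2 called the same 4 lower, with Hey1, and Notch2 higher. Shares of all genes are from edgeR throughout, and the share that DESeq2 called was not computed. At an unadjusted p under 0.05 in edgeR the higher ones were Notch2 and Jag2 (14.1% of all genes). The untreated D4H8 libraries are the ones used in the stage comparisons above, so the comparisons are not independent.

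Dll1 had 43.8, 28.3 and 33.8 FPKM in the untreated D4H8 libraries and 7.05, 1.23 and 2.72 with GSKJ4, the latter within or below the D4 range of 5.94 to 8.32. It fell by 3.34 ± 0.52 on the log2 scale (edgeR adjusted p = 0.0194). Dll4 had 5.77, 3.67 and 4.35 FPKM untreated and 1.78, 0.61 and 1.32 with GSKJ4, and fell by 1.96 ± 0.37 (edgeR adjusted p = 0.0275). For both genes the groups were fully apart. Hes5 went from 15.9, 6.91 and 4.99 FPKM to 1.62, 0.43 and 0.42, the last 2 from 10 and 9 counts, and fell by 3.56 ± 0.63 (edgeR adjusted p = 0.0246). Notch1 went from 15.5, 11.1 and 14.7 FPKM to 9.42, 5.22 and 5.27, and fell by 1.10 ± 0.26 (edgeR adjusted p = 0.0492). Here too no treated library reached an untreated one.

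Dll3 pointed the same way but was more dispersed, with 45.6, 25.3 and 28.8 FPKM untreated and 19.5, 2.56 and 5.38 with GSKJ4 (-1.94 ± 0.60, edgeR adjusted p = 0.0898). The first treated library stood far above the other two, and Dll3 passed without it (-3.12, edgeR adjusted p = 0.00947). Hey1 had 7.21, 3.98 and 2.98 FPKM untreated and 2.79, 1.29 and 0.8 treated (-1.59 ± 0.49, edgeR adjusted p = 0.0888), and DESeq2 called it lower (-1.60, adjusted p = 0.00649). Jag1 had 1.41, 1.17 and 1.56 against 0.96, 0.7 and 0.68 (-0.86 ± 0.29, edgeR adjusted p = 0.105). In these 3 genes the groups did not overlap, as in 14.3% of all tested genes in that direction, yet none passed edgeR's test with all 6 libraries.

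Hes1 differed little on average, with 19.5, 16.3 and 16.7 FPKM untreated and 21.7, 9.89 and 19.5 treated (-0.10 ± 0.26, edgeR adjusted p = 0.845). The treated libraries spanned the untreated ones. Notch2 had 8.63, 8.72 and 9.84 FPKM untreated and 17.3, 18.1 and 11.8 treated (0.78 ± 0.22, edgeR adjusted p = 0.074). Jag2 had 3.53, 5.04 and 5.71 untreated and 10.7, 5.41 and 8.41 treated (0.74 ± 0.25, edgeR adjusted p = 0.116). The 2 Jag2 groups overlapped and the 2 Notch2 groups did not.

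These calls depended on single libraries. Without untreated replicate 1, or without untreated replicate 3, 0 of the 10 genes were called, without untreated replicate 2 only 1 was, and without treated replicate 3, 2 were. How many of all genes kept their call in these refits was not computed, so a loss particular to these genes cannot be told from a general one. The log2 change stayed between -4.21 and -2.94 for Dll1, between -2.31 and -1.67 for Dll4, between -4.48 and -2.88 for Hes5 and between -1.41 and -0.93 for Notch1 over the 6 refits, with edgeR adjusted p up to 0.0818, 0.15, 0.116 and 0.222. The values furthest from those with all libraries were -4.21 for Dll1 and -4.48 for Hes5 without treated replicate 1, and -2.88 for Hes5 without untreated replicate 1.

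Among the 45 other listed genes tested at D4H8, 0 were higher and 5 lower with GSKJ4 (2.11% of all genes higher and 1.85% lower). Hey2 fell by 3.53 ± 0.37 (edgeR adjusted p = 0.00364), from a mean of 1.79 to 0.157 FPKM. Lfng fell by 3.00 ± 0.61 (edgeR adjusted p = 0.0347), from 14.5 to 1.92 FPKM, and Mfng by 2.77 ± 0.44 (edgeR adjusted p = 0.0194), from 31.1 to 4.79 FPKM. Hes6 fell by 2.26 ± 0.50 (edgeR adjusted p = 0.0431) and Nrarp by 2.15 ± 0.38 (edgeR adjusted p = 0.0246). Leaving out any 1 of the untreated libraries left 1 call in place of 5.

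Marker genes moved with this result. Mean Neurog2, a proneural factor, went from 44.4 FPKM in untreated D4H8 libraries to 2.96 with GSKJ4, and mean Olig2 from 98.2 to 6.93. The MN list summed to 204 to 351 FPKM untreated and 83.4 to 197 treated, with 8 of its 8 genes at a group mean of at least 1 FPKM untreated and 5 treated. Tubb3 was the largest part of that sum, with a mean of 210 FPKM untreated and 98.2 treated. Each gene of the list had a lower mean when treated, but Mnx1 went only from 12.9 to 9.42 FPKM, with overlapping libraries. The MN progenitor list summed to 242 to 328 untreated and 59 to 120 treated, with all 7 genes at or above 1 FPKM in both, and the radial glia list to 5.47 to 7.38 and 1.81 to 3.46. The pluripotency list summed to 9.85 to 52 and 29.8 to 77.3 (all 4 genes at or above 1 FPKM), and the fibroblast list to 7.35 to 15.9 and 13 to 31.2, and for both the ranges overlapped. The part of these shifts in the change of the Notch genes was not tested.

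**Figure D4:**
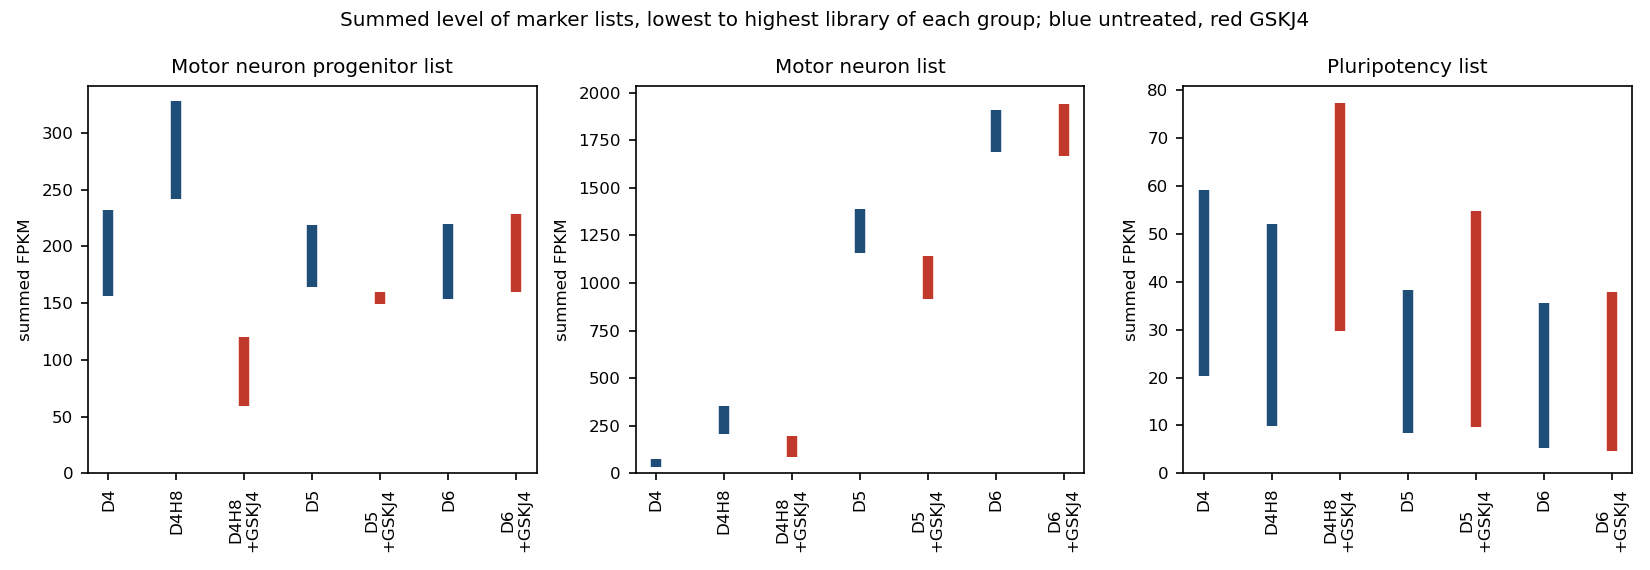
Summed FPKM of 3 marker lists (vertical axes, from 0), each bar spanning the lowest to the highest library of a group (horizontal axes), untreated in blue and GSKJ4 in red. The MN progenitor sum is 242 to 328 at D4H8 and 59 to 120 at D4H8 with GSKJ4, while the D6 bars of treated and untreated cultures overlap in all 3 panels.

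At D5 no member was called with GSKJ4, of 9 tested (edgeR), where 0.00613% of 16309 genes were called. At an unadjusted p under 0.05, 2 of the 9 were lower, Dll1 and Dll4 (4.7% of all genes in either direction), and DESeq2 called 1, Dll1. Dll1 had 15.8, 12.1 and 13.4 FPKM untreated and 8.41, 4.94 and 8.58 treated, with no overlap (-0.96 ± 0.24, edgeR adjusted p = 0.695). Dll4 had 3.1, 2.34 and 3.33 untreated and 1.41, 2.07 and 1.57 treated, again apart (-0.85 ± 0.29, edgeR adjusted p = 0.976). The D5 groups were apart in that direction in 5.13% of all tested genes. Hes5 did not pass the filter at D5, where the treated libraries held 9, 0 and 10 counts and the untreated ones 8, 15 and 13. The 0 stands in replicate 2, the library with the most genes at 0. The other 7 members had log2 differences between -0.57 (Hey1) and 0.03 (Notch2).

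At D6 no member was called either (edgeR, 0 of 10, and 0% of 16301 genes), nor by DESeq2. At an unadjusted p under 0.05 there was 1, Dll3, with 10.8, 10.8 and 9.87 FPKM untreated and 13.2, 11.5 and 14.7 treated (0.32 ± 0.13, edgeR adjusted p = 1), against 1.36% of all genes. Jag2 differed less than its libraries did among themselves, with 16.1, 14.6 and 14.6 FPKM untreated and 15.5, 14 and 15.7 treated (-0.01 ± 0.11). The edgeR values above are from the fit without pairing. Treated and untreated replicates of the same number varied together at D6, and a fit with the replicate number as a block called 0 of 10 members there too (0.294% of all genes higher and 1.28% lower). In that edgeR fit Dll3 came closest (0.31 ± 0.09, unadjusted p = 0.00182, adjusted p = 0.0866). Hey1 (-0.25, unadjusted p = 0.00862), Notch1 (0.27, 0.0138) and Notch2 (-0.14, 0.033) followed. The share of all genes by unadjusted p was not computed for it. Of the other listed genes, 0 of 43 tested were called at D5 and 0 of 44 at D6 by edgeR, and 0 at either stage by DESeq2. At an unadjusted p under 0.05 there were 2 at D5, both lower, and 0 at D6.

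**Figure D5:**
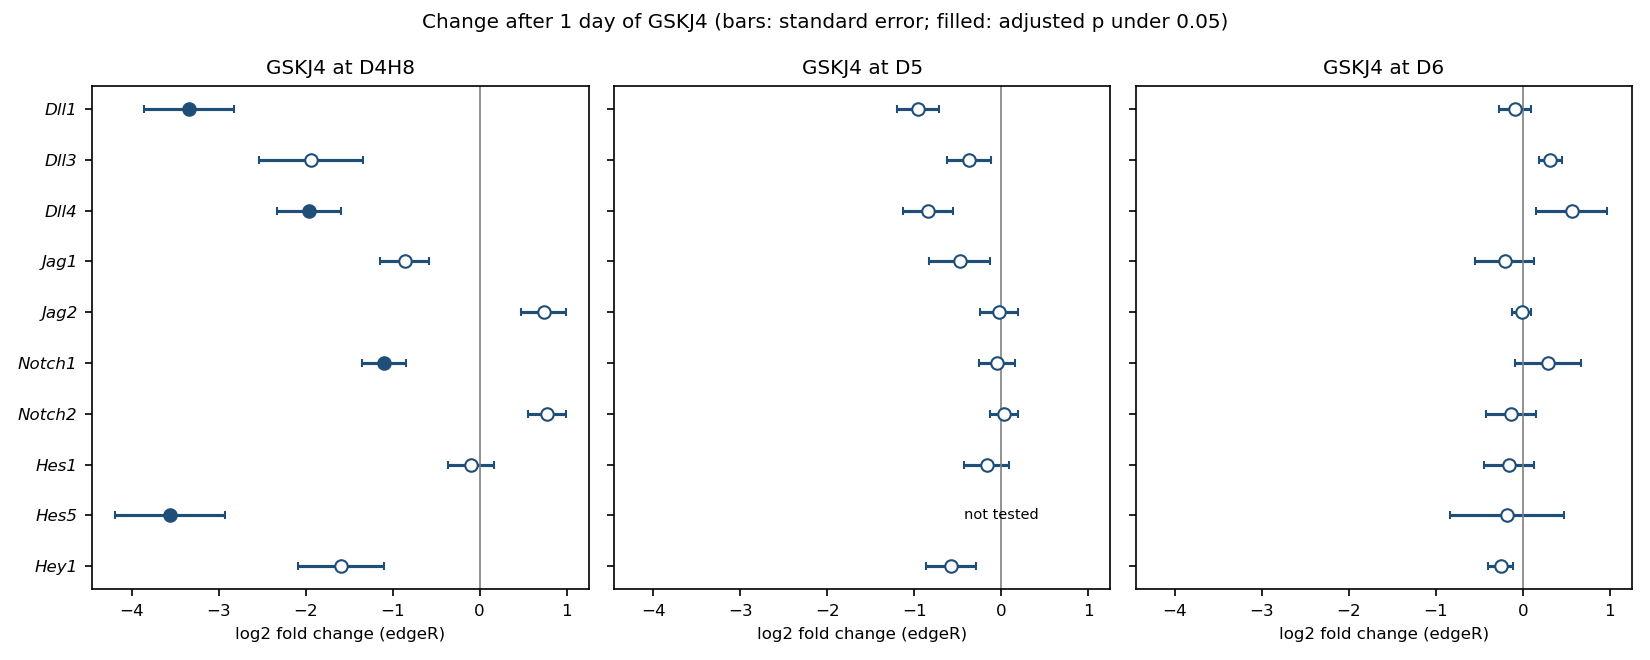
Log2 fold change of the 10 genes with GSKJ4 at each stage (horizontal axes), n = 3 against 3 libraries, with bars for the standard error and filled points for an edgeR adjusted p under 0.05. Filled points are found at D4H8 only (Dll1, Dll4, Notch1 and Hes5), and Hes5 was not tested at D5. The fits shown are without pairing.

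Whether the response differed between stages was tested directly. The GSKJ4 effect at D6 minus that at D4H8 was 3.26 ± 0.57 on the log2 scale for Dll1 (edgeR adjusted p = 0.0105) and 2.54 ± 0.54 for Dll4 (edgeR adjusted p = 0.0365), where 0.552% of 18103 genes were called higher and 0.182% lower. The other 8 members did not pass with edgeR, including Dll3 (2.26 ± 0.66, edgeR adjusted p = 0.129), Hes5 (3.40 ± 1.10, edgeR adjusted p = 0.168) and Notch1 (1.39 ± 0.46, edgeR adjusted p = 0.176). DESeq2 also called Dll3 (2.23, adjusted p = 0.0226) and Hes5 (3.38, adjusted p = 0.0301). With the replicate number as a block edgeR called Dll3 (2.43, adjusted p = 0.0163) beside Dll1 and Dll4, where 1.68% of all genes were called higher and 1.03% lower. Dll3 also passed without treated D4H8 replicate 1 (3.46, edgeR adjusted p = 0.000481). For the effect at D5 minus that at D4H8, 0 of 10 passed (edgeR, 0.249% of all genes called), 7 had an unadjusted p under 0.05 (10% of all genes), and DESeq2 called 1, Dll1. There the difference was 2.37 ± 0.56 for Dll1 (edgeR adjusted p = 0.117) and 1.11 ± 0.49 for Dll4 (edgeR adjusted p = 0.452). Of the other listed genes, Hey2 and Mfng were called in both of these differences and Hes6 in the one with D6.

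Likeness of profile was described by Pearson's r of log2 CPM (counts scaled to library size) over the 21 libraries, among 12006 expressed genes. These libraries share stages, depth and treatment, so r is a description. Dll3 was most like Rhbdl3 (r = 0.972), Fam110a (0.965) and Insm1 (0.963), a zinc finger factor of newborn neurons. Dll4 was most like Cdc25b (0.93), a phosphatase that drives entry into mitosis, Neurog1 (0.927), a proneural factor, and Sp8 (0.926). Dll1 had looser matches, with Rfx4 (0.864), Cdc42ep4 (0.849) and Cdip1 (0.842). Jag1 came closest to Ier3 (0.823), Adcyap1r1 (0.806) and Tceal3 (0.795), and Jag2 to Stoml1 (0.977), Cds2 (0.962) and Cul9 (0.96).

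Notch1 was most like Heg1 (0.972), Nuak2 (0.967) and Zfp516 (0.965). Notch2 matched Ptpn14 (0.965), Myh9 (0.965), which encodes a non-muscle myosin heavy chain, and Tln1 (0.961), which encodes talin. Hes1 was closest to the FGF receptor gene Fgfr2 (0.971), then to Bag2 (0.968) and Gfm1 (0.961). The best matches of Hes5 were Coq4 (0.907), Tkt (0.907) and Sfrp2 (0.904), a secreted modulator of Wnt signalling, and those of Hey1 were Pou3f3 (0.922), a neural POU factor, Hacd3 (0.92) and Fez1 (0.916). Among the members themselves the closest pair was Dll4 with Notch1 (r = 0.896), followed by Notch1 with Hes1 (0.808), and the most opposed was Notch1 with Jag2 (-0.761).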

How the data were processed

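Poly(A) RNA-seq was analysed from 21 libraries, grouped by GEO's labels. Per the labels and the study's methods, the authors trimmed reads with Fastp, aligned them to mm10 with HISAT2, sorted them with SAMtools and counted them per gene with HTSeq. Counting strand is not stated and the kit does not mark strand. The deposited tables give raw counts, one column per library, and FPKM, made by the authors per exonic length, which was deposited beside them as a value of each gene. FPKM recomputed from these differed by at most 0.005. Symbols and positions came from GENCODE M21 (55140 of 55400 identifiers had one), and promoters from RefSeq.

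Counts were tested in R 4.3.3 with edgeR 4.0.16 (quasi-likelihood test, TMM scaling, filterByExpr at a minimum count of 10, Benjamini-Hochberg adjustment over all tested genes, threshold 0.05). Stage contrasts were fitted on the 12 untreated libraries, GSKJ4 contrasts on the 6 libraries of a stage and their differences on 18. Standard errors are the fold change divided by the root of the test statistic. DESeq2 1.42.0, RLE and upper-quartile scaling, no filter, a replicate block and leaving out each library were alternatives. Log2 CPM used a prior count of 2. Library pairs within a group had a mean chi-square per gene of 6.94 to 117, so none differed by sampling noise alone. Simulated data with 200 changed genes were used to test the pipeline. Figures used matplotlib 3.10.9.

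Same-numbered treated and untreated libraries had correlated deviations from their group means at D6 (0.755, 0.427 and 0.57, all over 0.1), and only there did all pairs pass among the GSKJ4 contrasts, so D6 was taken as paired from the data. The main D6 fit is nevertheless without the block, and the blocked fit is given beside it. The labels do not say that a number marks a shared culture. Among untreated stages the numbers paired D4H8, D5 and D6 with each other (0.151 to 0.416) but not with D4.

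The 10 genes, the wider list of 47 and the marker lists were chosen with earlier results of these data known. One marker list is not reported here. Named genes are the 10 members, at most the 4 listed genes a role and contrast with the largest change past the threshold, the 3 genes most like each member among those with a mean of at least 1 FPKM, and marker genes that move with a result.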

Additional observations from a re-analysis of the deposited data

Results flagged for a closer look

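The GSKJ4 effect on 2 Delta ligands differed between stages by a test of the difference itself (interaction terms over 18 libraries, edgeR). For Dll1 the effect at D6 minus that at D4H8 was 3.26 ± 0.57 on the log2 scale (edgeR adjusted p = 0.0105), from an effect of -3.34 ± 0.52 at D4H8 and -0.09 ± 0.19 at D6, and the difference was called in all 18 refits that each left out 1 library, between 2.86 and 4.15, the latter without D4H8_GSKJ4 replicate 1. All 3 treated D4H8 libraries lay below all 3 untreated ones, whereas at D6 the groups overlapped, with 10.5, 13.2 and 8.87 FPKM untreated and 10.6, 11.6 and 8.49 treated.

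For Dll4 the difference was 2.54 ± 0.54 (edgeR adjusted p = 0.0365), from -1.96 ± 0.37 at D4H8 and 0.56 ± 0.41 at D6, where the libraries hold 12 to 28 counts each. It was called in 9 of the 18 refits. It was lost without D4H8 replicate 1 or 3, D5 replicate 3, D5_GSKJ4 replicate 3, any D6 replicate, or D6_GSKJ4 replicate 1 or 2 (edgeR adjusted p up to 0.149). The untreated level of Dll4 itself had fallen from 4.60 to 0.217 FPKM between these stages.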

How the results depend on the processing

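No direction of a called gene reversed under any alternative, and RLE and upper-quartile scaling left each of the 89 single-gene results on its side of the threshold. Upper-quartile scaling moved the median log2 change of all genes from D4 to D6 to -0.19 (-0.04 with TMM) and from D5 to D6 to -0.10. Of the other 267 single-gene results with DESeq2, no filter or the block, 24 gained a call and 1 lost it, and of 1014 leave-one-out results 9 gained and 41 lost one. The counts for GSKJ4 at D4H8 are the least stable. Without a filter on low counts 8 members were called in place of 4, and 10 other listed genes in place of 5 (DESeq2 9). At D5, DESeq2 and the fit without a filter each called 1 member in place of 0. For the effect at D5 minus D4H8, DESeq2 called 1 member and 5 other genes, and no filter 3 and 6, in place of 0 and 2. For the effect at D6 minus D4H8 these settings gave 4 and 6, and 6 and 7, in place of 2 and 3. The share of all genes called was not computed for DESeq2 or without the filter, so these counts have no background to be read against. Dll3 at D4H8 had a log2 change of -1.94 with and without the filter, at an edgeR adjusted p of 0.0898 and 1.07e-13. The cause of these differences between settings was not tested.

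With the replicate number as a block, 7 members (6 lower and Notch2 higher) and 10 other genes were called for GSKJ4 at D4H8 (7.59% of all genes higher and 6.39% lower). For the effect at D5 minus D4H8 the block called 1 member and 6 other genes (0.79% of all genes higher and 0.232% lower). For that at D6 minus D4H8 it called 3 members (Dll3 in addition to Dll1 and Dll4) and 8 other genes (1.68% of all genes higher and 1.03% lower). Correlations of same-numbered treated and untreated libraries were 0.492, 0.0904 and 0.299 at D4H8 and 0.251, 0.058 and 0.228 at D5. Replicate 2 was below 0.1 at both stages, so the pairing is not established there for all replicates. The block changed no member call between stages or for GSKJ4 at D5 and D6. Among all genes at D6 it called 48 higher and 209 lower, in place of 0.

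Leaving out 1 library gave 0 to 5 members for GSKJ4 at D4H8, 0 to 2 for the effect at D5 minus D4H8 and 1 to 3 for that at D6 minus D4H8. For the other listed genes the ranges were 1 to 10, 0 to 9 and 1 to 9, 5 to 11 from D4 to D4H8, and 10 to 19 from D4H8 to D5. The share of all genes called in these refits was not computed. A refit that leaves 2 libraries in a group still pools their spread with the other groups. Depth limits Hes5 and Dll4 most, at 0 to 20 counts in the D5 and D6 libraries of Hes5 and 12 to 28 in the D6 libraries of Dll4.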
